A study of Mus musculus with 9 samples.

Results

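The genes described here are 10 genes expressed in Leydig cells, the androgen-producing cells between the seminiferous tubules. They are Star, Cyp11a1, Fdx1, Fdxr, Cyp17a1, Hsd17b3, Nr5a1, Lhcgr, Insl3 and Sult1e1. Most act in steroid synthesis or its control, but Insl3 encodes a peptide hormone and Sult1e1 an enzyme that inactivates oestrogens. The 10 genes were taken by name from a table of 19991 genes. All 10 were found there and were among the 15834 genes that passed the filter on low counts. Whole-testis RNA was measured by mRNA sequencing in ICR mice, an outbred stock, aged 8 weeks. One group was injected with AZ82 at 1 µM, another with CW069 at 50 µM, and the Control group with PBS, the buffer, with 3 libraries in each group and 9 in all. Both compounds are inhibitors of KIFC1, a minus-end-directed kinesin motor that works on spindles and, in spermatids, on the manchette. The route, the time from injection to sampling and any batch are not given in the sources used here, and the labels do not say that the 3 samples of a group came from separate mice, so the p-values cover only how far these samples spread, part of which may be technical.

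Luteinizing hormone from the pituitary binds LHCGR on Leydig cells and raises cyclic AMP, which drives the supply of cholesterol to mitochondria. STAR moves cholesterol to the inner mitochondrial membrane, where CYP11A1 cuts its side chain to give pregnenolone, with electrons passed from FDXR through FDX1. In the endoplasmic reticulum CYP17A1 converts C-21 steroids to androgens, and HSD17B3 makes testosterone from androstenedione. NR5A1, also called SF-1, is the nuclear receptor that drives transcription of many of these genes, INSL3 is a peptide hormone that Leydig cells secrete, and SULT1E1 inactivates oestrogens by adding a sulphate group.

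All 10 genes had a lower fitted level in AZ82 and in CW069 testes than in Control testes, by up to 44.3% for Sult1e1 in CW069, and none passed the test across all genes. Sult1e1 had the lowest fold changes of the 10, and Star, Cyp11a1, Nr5a1 and Fdxr were lower in each of the 6 inhibitor libraries than in every Control library. In AZ82 against Control, 10 of 10 log2 fold changes were below 0, where 50.3% of all tested genes were, and in CW069 against Control 10 of 10 were, where 51% of all tested genes were. These comparisons share the Control libraries, so their directions are not independent of each other. The median log2 fold change of the 10 genes was -0.27 in AZ82 and -0.34 in CW069, beside -0.001 and -0.004 over all tested genes.

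The test was edgeR's quasi-likelihood F test, two-sided, with Benjamini-Hochberg adjustment over all 15834 genes and a gene called at an adjusted p under 0.05. In AZ82 against Control, edgeR called 0 of the 10 genes and 0% of all tested genes, DESeq2 and limma-voom also called 0 of the 10, and 5 of the 10 (Star, Cyp11a1, Fdxr, Nr5a1 and Sult1e1) were lower at an unadjusted p under 0.05, where 4.79% of all genes were. In CW069 against Control, edgeR and limma-voom called 0 of the 10, DESeq2 called 1, Cyp11a1, and 7 of the 10 (those 5, Cyp17a1 and Lhcgr) were lower at an unadjusted p under 0.05, where 3.71% of all genes were. EdgeR called 0% of all genes here too. Over the mean of both inhibitors, edgeR called 0 of the 10 and 0.00632% of all genes, DESeq2 called Cyp11a1, limma-voom called 0 of the 10, and 6 of the 10 were lower at an unadjusted p under 0.05, against 5.27% of all genes. The 10 genes were chosen with earlier results of these data known, so none of these counts is an independent test of the list.

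**Figure D1:**
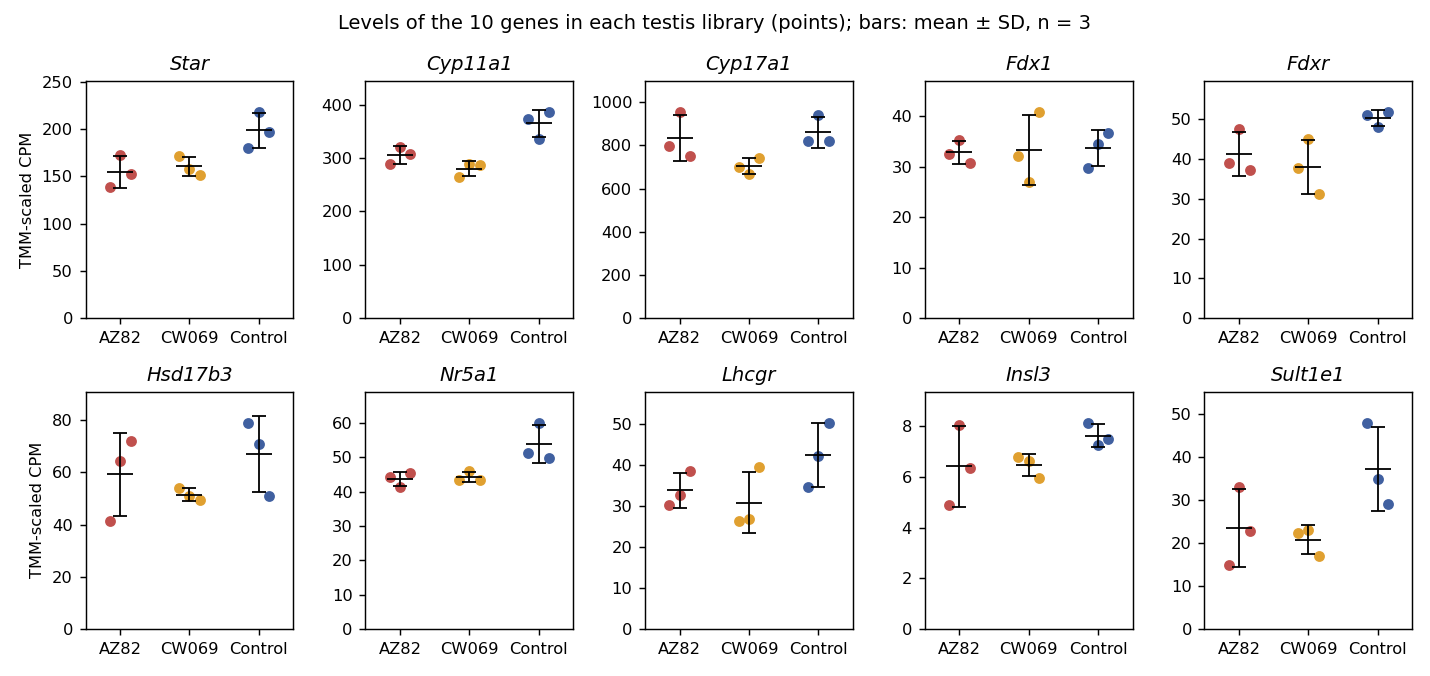
Level of each of the 10 genes in every library, in TMM-scaled CPM, with a panel and a linear axis from 0 for each gene. Points are libraries, and the horizontal line and bars are the mean ± SD of 3 libraries. In the panels of Star, Cyp11a1, Fdxr and Nr5a1 all 6 inhibitor points lie under the lowest Control point, while in the Fdx1 panel the 3 groups overlap.

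Libraries held 13856070 to 18102593 counts, and the 10 genes together took 0.140% to 0.166% of the counts in AZ82 libraries, 0.135% to 0.137% in CW069 libraries and 0.167% to 0.182% in Control libraries. Cyp17a1 gave more of these counts than any other of the 10. Levels below are CPM, that is counts divided by TMM-scaled library totals, with log2 fold changes as inhibitor over Control, ± SE. The target gene of the compounds, Kifc1, had 9.33 ± 0.280 CPM in AZ82, 9.57 ± 0.820 in CW069 and 8.66 ± 0.816 in Control (SD, n = 3 each), and its near-identical paralog Kifc5b makes that count uncertain; an inhibitor of the protein need not move the transcript. The third Control library stood apart in germ cell genes: 17 elongating spermatid markers averaged 0.99 below the mean of the 9 libraries on the log2 scale there, and the other 8 libraries lay between -0.15 and 0.36.

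Lhcgr, the receptor for luteinizing hormone, had 30.3, 32.8 and 38.5 CPM in AZ82 libraries, 26.4, 26.8 and 39.5 CPM in CW069 libraries, and 34.7, 42.2 and 50.4 CPM in Control libraries. The groups overlapped, because the third library of each inhibitor lay above the lowest Control library. Its log2 fold change was -0.33 ± 0.17 in AZ82 (edgeR adjusted p = 0.601) and -0.45 ± 0.17 in CW069 (edgeR adjusted p = 0.646). With any library left out it ran from -0.45 to -0.19 in AZ82 and from -0.67 to -0.31 in CW069. In bulk tissue, fewer Leydig cells and less Lhcgr RNA in each Leydig cell cannot be told apart, and this holds for every gene below.

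Nr5a1, the transcription factor, had 44.3, 41.3 and 45.3 CPM in AZ82 libraries, 43.3, 45.9 and 43.4 CPM in CW069 libraries, and 51.4, 60.1 and 49.9 CPM in Control libraries. Every inhibitor library lay below every Control library, and the 6 inhibitor libraries spread over only 41.3 to 45.9 CPM. In AZ82 its log2 fold change was -0.30 ± 0.08 (edgeR adjusted p = 0.554) and -0.28 ± 0.08 in CW069 (edgeR adjusted p = 0.524). It stayed at an unadjusted p under 0.05 in 9 of 9 fits that each left out 1 library, in both comparisons. Sertoli cells and other gonadal somatic cells also express Nr5a1, so its level in whole testis is not that of Leydig cells alone.

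NR5A1 is known to bind DNA as a monomer at short sites built around TCAAGG or the nuclear receptor half-site AGGTCA. Promoter windows of 250 bases before to 50 bases after the start were found in RefSeq (GRCm38.p6) for 7 of the 10 genes, in 8 windows; Star, Cyp17a1 and Nr5a1 had no entry. TCAAGG, searched on both strands, was in 3 of the 8 windows (Fdx1, Insl3 and Lhcgr) and in 12.5% of all 32851 windows. AGGTCA was in 3 of the 8 (Cyp11a1, Lhcgr and Sult1e1) and in 14.02% of all windows. Either motif was found in 5 of the 8 windows, from 5 of the 7 genes, and in 24.1% of all windows. The stretches that hold these letters are shown because NR5A1 is the regulator among the 10 genes; the match is of letters alone, and no binding was measured. The stretches of 4 genes are given 5′ to 3′ on the strand of the gene, with capitals on the matched letters (TCAAGG and AGGTCA, or CCTTGA and TGACCT for the other strand), and in Lhcgr the motifs overlap.
Lhcgr promoter, chr17:88792098-88792166, minus strand: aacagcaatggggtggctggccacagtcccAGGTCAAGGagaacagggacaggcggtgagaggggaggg
Fdx1 promoter, chr9:51963641-51963754, minus strand: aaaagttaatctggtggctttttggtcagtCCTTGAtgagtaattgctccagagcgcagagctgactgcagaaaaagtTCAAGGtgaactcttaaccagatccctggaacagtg
Insl3 promoter, chr8:71689084-71689149, plus strand: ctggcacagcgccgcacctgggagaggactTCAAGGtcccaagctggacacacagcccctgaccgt
Sult1e1 promoter, chr5:87591689-87591754, minus strand: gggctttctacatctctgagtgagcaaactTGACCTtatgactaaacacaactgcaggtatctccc
The genes with a match include both the lowest fold changes of the 10 (Sult1e1) and those nearest to 0 (Fdx1).

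Star, the carrier of cholesterol into mitochondria, had 139, 172 and 152 CPM in AZ82 libraries, 172, 158 and 151 CPM in CW069 libraries, and 180, 218 and 197 CPM in Control libraries. No inhibitor library reached the lowest Control library. AZ82 gave a log2 fold change of -0.36 ± 0.10, with a 95% interval of -0.57 to -0.15 (edgeR adjusted p = 0.554), which is a level 22.2% lower. In CW069 it was -0.31 ± 0.10, with an interval of -0.52 to -0.09 (edgeR adjusted p = 0.539). It stayed at an unadjusted p under 0.05 in 9 of 9 fits with 1 library left out in both comparisons.

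Cyp11a1, the side-chain cleavage enzyme, had 288, 321 and 308 CPM in AZ82 libraries, 265, 289 and 287 CPM in CW069 libraries, and 373, 336 and 386 CPM in Control libraries. All 6 inhibitor libraries were below all 3 Control libraries, and those of CW069 were the lower on average. The log2 fold change was -0.25 ± 0.08 in AZ82 (edgeR adjusted p = 0.554) and -0.38 ± 0.08 in CW069 (edgeR adjusted p = 0.396). For CW069, DESeq2 gave -0.37 with an adjusted p of 0.0112, and for the mean of both inhibitors -0.31 with an adjusted p of 0.0298. Cyp11a1 was the member with the smallest adjusted p in the CW069 comparison, and with 1 library left out its fold change stayed between -0.44 and -0.34.

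The electron carriers of CYP11A1 are encoded by Fdxr and Fdx1. Fdxr, the ferredoxin reductase, had 38.9, 47.6 and 37.4 CPM in AZ82 libraries, 37.7, 45.1 and 31.3 CPM in CW069 libraries, and 51.1, 48.2 and 51.9 CPM in Control libraries. The Control libraries lay close together above all inhibitor libraries, although AZ82 2 came within 1 CPM of the lowest Control library. Its log2 fold change was -0.29 ± 0.13 in AZ82 (edgeR adjusted p = 0.564) and -0.41 ± 0.13 in CW069 (edgeR adjusted p = 0.539). At an unadjusted p under 0.05 it stayed in 3 of 9 fits with 1 library left out for AZ82 and in 9 of 9 for CW069. Fdx1, the ferredoxin that carries the electrons on, had 32.5, 35.3 and 30.7 CPM in AZ82 libraries, 32.1, 27.0 and 40.8 CPM in CW069 libraries, and 29.8, 34.4 and 36.7 CPM in Control libraries. Its groups overlapped throughout, with log2 fold changes of -0.04 ± 0.14 in AZ82 and -0.01 ± 0.14 in CW069, and 95% intervals of -0.34 to 0.27 and -0.32 to 0.30. The difference between Fdxr and Fdx1 was not tested.

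Cyp17a1, the enzyme that turns C-21 steroids into androgens, was the most abundant of the 10, per length as well (given further on). It had 798, 955 and 752 CPM in AZ82 libraries, 699.6, 668 and 743 CPM in CW069 libraries, and 819, 943 and 819 CPM in Control libraries. The CW069 libraries lay below every AZ82 and every Control library, while those of AZ82 overlapped Control. CW069 gave a log2 fold change of -0.29 ± 0.10 (edgeR adjusted p = 0.574) and AZ82 of -0.04 ± 0.10 (edgeR adjusted p = 0.906), and without AZ82 3 the AZ82 value was 0.0265. CW069 against AZ82 gave -0.25 ± 0.10, with a 95% interval of -0.47 to -0.03 (edgeR adjusted p = 0.977).

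Hsd17b3, which makes testosterone, had 41.4, 64.6 and 71.9 CPM in AZ82 libraries, 54.2, 50.9 and 49.4 CPM in CW069 libraries, and 79.1, 71.0 and 50.8 CPM in Control libraries. Control 3 and AZ82 1 were low within their groups, and both inhibitors overlapped Control. The log2 fold change was -0.38 ± 0.19 in CW069 (edgeR adjusted p = 0.698) and -0.18 ± 0.19 in AZ82 (edgeR adjusted p = 0.787). Leaving out AZ82 1 brought the AZ82 value to 0.0273, and leaving out Control 3 brought it to -0.34.

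Sult1e1, the oestrogen sulphotransferase, had 14.8, 33.0 and 22.7 CPM in AZ82 libraries, 22.4, 23.1 and 16.9 CPM in CW069 libraries, and 48.0, 34.8 and 29.0 CPM in Control libraries. The CW069 libraries were all below the lowest Control library, and AZ82 2 was above it. The log2 fold change was -0.85 ± 0.26 in CW069, with a 95% interval of -1.42 to -0.27 (edgeR adjusted p = 0.539), and -0.66 ± 0.26 in AZ82, with an interval of -1.24 to -0.08 (edgeR adjusted p = 0.554). With 1 library left out the value ran from -0.996 to -0.62 in CW069 and from -0.99 (without AZ82 2) to -0.42 (without AZ82 1) in AZ82. Sult1e1 also varied most among the 10 within AZ82 and within Control, with an SD of 38.7% of the mean in AZ82 and 26.1% in Control.

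Insl3, the peptide hormone, was the least counted member, at 67 to 118 counts per library. It had 4.88, 8.07 and 6.35 CPM in AZ82 libraries, 6.78, 6.64 and 5.96 CPM in CW069 libraries, and 8.15, 7.25 and 7.52 CPM in Control libraries. The CW069 libraries were below all Control libraries while of the AZ82 libraries the first and the third were below them and the second was within their range. The log2 fold change was -0.25 ± 0.17 in AZ82 (edgeR adjusted p = 0.660) and -0.24 ± 0.17 in CW069 (edgeR adjusted p = 0.754). In an annotation of an earlier build, 404 of the 623 exonic bases of Insl3 (64.8%) also lie in exons of Jak3, on the same strand, and the counting rule for such reads is not given, so the Insl3 values are uncertain. Jak3 had 12.0 ± 2.96 CPM in AZ82, 12.0 ± 0.867 in CW069 and 12.1 ± 2.57 in Control (SD, n = 3 each).

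Across the members, 4 genes (Star, Cyp11a1, Fdxr and Nr5a1) were lower in all 3 AZ82 libraries than in all 3 Control libraries, where 8.62% of all tested genes were. In CW069 the same 4 and Cyp17a1, Insl3 and Sult1e1 were, 7 in all, where 7.24% of all tested genes were. All 6 inhibitor libraries together lay below Control in the first 4, where 2.92% of all tested genes did. In CW069 against AZ82, Cyp17a1 alone was lower in every library, where 5.8% of all genes were, and it alone was lower at an unadjusted p under 0.05, where 2.39% of all genes were. In that comparison edgeR called 0 of the 10 and 0% of all genes, DESeq2 and limma-voom called 0 of the 10, and 6 of the 10 fold changes were below 0, where 50.4% of all genes were. The doses of AZ82 and CW069 differed, so it compares the groups as dosed and not the compounds.

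**Figure D2:**
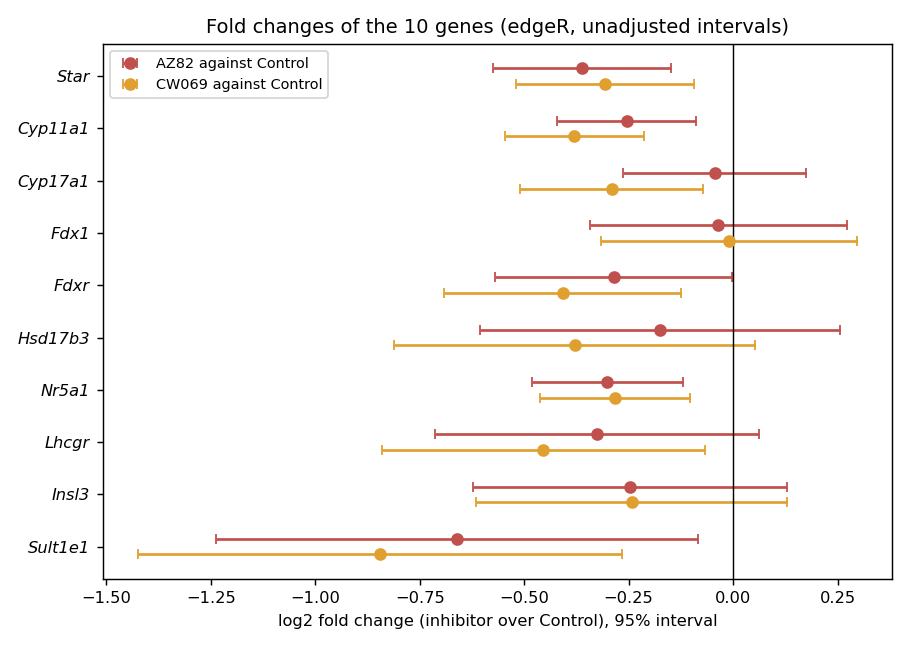
Log2 fold change of each gene in AZ82 (red) and CW069 (orange) testes over Control testes, with bars for the 95% interval of the edgeR fit, unadjusted for the number of genes. All points lie below 0; the intervals of Star, Cyp11a1, Nr5a1, Fdxr and Sult1e1 stay below 0 for both inhibitors, and those of Fdx1, Hsd17b3 and Insl3 cross 0 for both.

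The members did not vary in the same way within groups. AZ82 2 was the highest AZ82 library for 7 of the 10 genes and the lowest for Nr5a1, and AZ82 1 was the lowest for 6. AZ82 1 was below every Control library in 9 of the 10 genes, AZ82 2 in 5 and AZ82 3 in 7. In CW069 the counts were 8, 9 and 8 for libraries 1, 2 and 3. The share of all tested genes below every Control library is not given here for single libraries. These counts therefore only describe how the libraries of a group differ. AZ82 2 was also the highest AZ82 library in the summed level of other Leydig cell markers, given below.

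Per kilobase of exon, with lengths from GENCODE M21 (GRCm38), Cyp17a1 had the highest Control level of the 10, at 311 ± 25.8 CPM per kb (SD, n = 3), followed by Cyp11a1 at 76.0 ± 5.40. Star at 48.3 ± 4.61 and Hsd17b3 at 48.2 ± 10.5 CPM per kb overlapped each other, and the lowest Hsd17b3 library overlapped Sult1e1, at 29.99 ± 7.83. Fdxr, at 18.0 ± 0.689 CPM per kb, lay below all of these. Nr5a1 at 12.7 ± 1.30 CPM per kb overlapped Insl3 at 12.3 ± 0.736, and Insl3 overlapped Fdx1 at 10.8 ± 1.14. Lhcgr was lowest at 5.55 ± 1.03. Of the 623 exonic bases of Insl3, 404 also lie in Jak3 exons, and how such reads were counted is not given. The level of Insl3 per length and its place in this order are therefore uncertain.

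**Figure D3:**
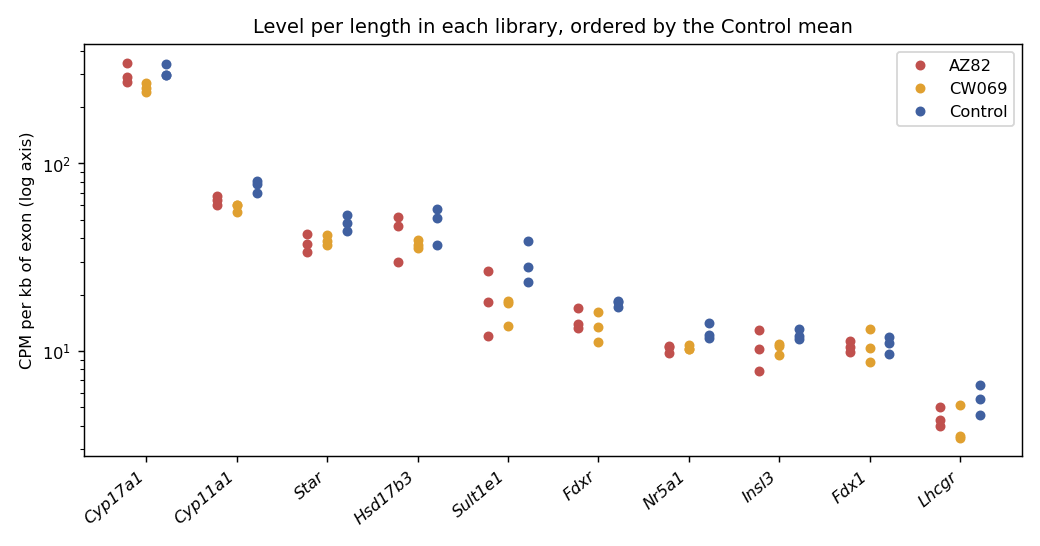
Level per kilobase of exon (log axis) of the 10 genes in each library, ordered by the Control mean, with AZ82, CW069 and Control points side by side for each gene. The Control means run between 311 CPM per kb for Cyp17a1 and 5.55 for Lhcgr, a far wider span than the gaps between groups within any gene. The place of Insl3 is uncertain, because much of its exonic length also lies in Jak3 exons.

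The other genes of the pathway were read from 5 lists with 106 genes, of which 102 were tested. In each comparison edgeR called 0 of the 102. At an unadjusted p under 0.05, 10 were lower and 5 higher in AZ82, and 11 were lower and 5 higher in CW069, with median log2 fold changes of -0.08 and -0.05. Named below are genes with the smallest unadjusted p of their list over the mean of both inhibitors. That pick favours genes whose inhibitor and Control libraries lie apart, so a separation in a named gene only describes it.

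Of 20 genes that supply cholesterol, 10 had a fold change below 0 in AZ82 and 13 in CW069, with medians of -0.01 and -0.08, and 2 in each were lower at an unadjusted p under 0.05. Npc1, which moves cholesterol out of lysosomes, had 15.1 ± 1.08 CPM in AZ82, 13.4 ± 2.05 in CW069 and 16.6 ± 0.885 in Control. Soat1, which esterifies cholesterol for storage, had 71.3 ± 3.66 CPM in AZ82, 73.4 ± 10.1 in CW069 and 81.8 ± 7.38 in Control (SD, n = 3 each).

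Of 19 other tested enzymes and electron donors of androgen synthesis and turnover, 15 had a fold change below 0 in AZ82 and 14 in CW069, with medians of -0.09 and -0.06. At an unadjusted p under 0.05, 3 were lower and 0 higher in AZ82, and 3 lower and 1 higher in CW069. Hsd3b1, the 3-beta-hydroxysteroid dehydrogenase of the pathway, had 131, 207 and 168 CPM in AZ82 libraries, 183, 191 and 172 CPM in CW069 libraries, and 226, 199 and 230.0 CPM in Control libraries. The CW069 libraries lay below all of Control, and the second AZ82 library did not. Its relative Hsd3b6 had 55.3, 61.5 and 49.7 CPM in AZ82 libraries, 25.0, 25.9 and 23.9 CPM in CW069 libraries, and 39.1, 60.7 and 63.3 CPM in Control libraries. All 3 CW069 libraries were under both other groups and the AZ82 libraries fell in the Control range, with a log2 fold change of -1.13 in CW069 and 0.03 in AZ82, neither called by edgeR. Reads shared between the near-identical Hsd3b genes make both values uncertain. Hsd17b11, a dehydrogenase of steroids, had 13.0 ± 1.07 CPM in AZ82, 17.2 ± 1.24 in CW069 and 19.1 ± 2.88 in Control (SD, n = 3 each).

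Of 19 genes of LH receptor and cAMP signalling, 13 had a fold change below 0 in AZ82 and 8 in CW069, with medians of -0.05 and 0.01. Prkacb, a catalytic subunit of protein kinase A, had 16.1, 17.1 and 16.3 CPM in AZ82 libraries, 17.9, 16.4 and 17.9 CPM in CW069 libraries, and 21.5, 19.3 and 19.4 CPM in Control libraries. All inhibitor libraries were under all Control libraries. Pde4a, which degrades cyclic AMP, had 151, 149 and 141 CPM in AZ82 libraries, 141, 149 and 152 CPM in CW069 libraries, and 135, 126 and 136 CPM in Control libraries, with all inhibitor libraries above all Control libraries. Neither gene was called by edgeR. Both were named for a small unadjusted p over the mean of both inhibitors, which favours such a separation. Among all tested genes, 2.92% lay below Control in every inhibitor library, and the share above it is not given here.

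Of 23 other transcription factors of steroidogenic genes, 16 had a fold change below 0 in AZ82 and 13 in CW069. Nr4a1, an orphan nuclear receptor that luteinizing hormone induces in Leydig cells, had 49.8, 47.3 and 50.2 CPM in AZ82 libraries, 43.4, 43.2 and 54.1 CPM in CW069 libraries, and 38.6, 41.0 and 32.9 CPM in Control libraries. Its levels were higher in every inhibitor library than in every Control library, opposite in direction to Star and Cyp11a1, with log2 fold changes of 0.39 ± 0.11 in AZ82 (edgeR adjusted p = 0.554) and 0.32 ± 0.11 in CW069 (edgeR adjusted p = 0.539). Nr4a1 is also an immediate early gene, and of 18 tested immediate early genes 17 had a fold change above 0 in AZ82 and 15 in CW069, with medians of 0.15 and 0.23. Of these 18, 3 in each were higher at an unadjusted p under 0.05 and edgeR called 0. Fos had a log2 fold change of 1.07 ± 0.28 in AZ82 and 0.35 ± 0.29 in CW069, and Egr1 of 0.97 ± 0.47 and 0.96 ± 0.47. In Egr1, CW069 1 and CW069 2 lay within the Control range, so its CW069 value rests on CW069 3 alone. AZ82 3 also lay within that range, and AZ82 1 and AZ82 2 were above it. The part of the immediate early genes in the Nr4a1 value was not tested. Nr4a1 was named for a small unadjusted p, a pick that favours a separation of inhibitor from Control libraries.

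Of 21 ligands, receptors and paracrine signals, 15 had a fold change below 0 in AZ82 and 13 in CW069, with medians of -0.12 and -0.11. Ptch1, a hedgehog receptor that binds the Sertoli cell signal DHH, had 16.3 ± 1.64 CPM in AZ82, 17.5 ± 1.88 in CW069 and 20.8 ± 3.12 in Control (SD, n = 3 each). EdgeR called it in none of the 4 comparisons.

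**Figure D4:**
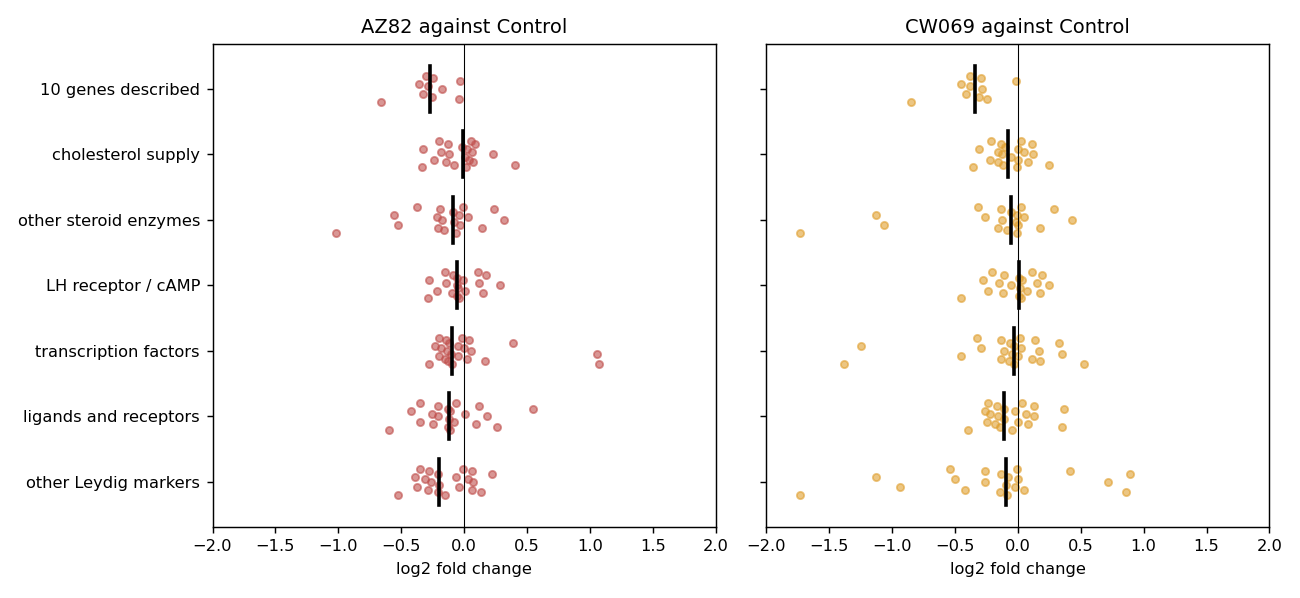
Log2 fold change of each tested gene (points) in AZ82 against Control and in CW069 against Control, for the 10 genes described, 5 lists of other pathway genes and 21 other Leydig cell markers; black bars are list medians. The 10 genes described lie below 0 with medians of -0.27 and -0.34, and the pathway lists have medians between -0.12 and 0.01.

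Markers of the cells that a testis sample holds were read in the same libraries. Of 21 Leydig cell markers outside the 10 genes, 15 had a fold change below 0 in AZ82 and 16 in CW069, with medians of -0.20 and -0.09, and edgeR called 0 in either. At an unadjusted p under 0.05, 2 were lower and 0 higher in AZ82, and 7 were lower and 2 higher in CW069. Their summed level was 1579 to 2236 CPM in AZ82 libraries, 1741 to 2102 CPM in CW069 libraries and 1904 to 2423 CPM in Control libraries, so both inhibitors overlapped Control. The 10 genes summed to 1432 to 1710 CPM in AZ82, 1341 to 1409 in CW069 and 1674 to 1795 in Control. AZ82 2 overlapped Control in that sum and no CW069 library did. Of mean sums of 1536, 1370 and 1716 CPM (AZ82, CW069, Control), Cyp17a1 alone gave 835, 704 and 860. The sum of the 10 therefore follows Cyp17a1 more than any other member. None of the 21 was at 0 in any library, and Aldh1a1, which makes up 41.2% of the sum, is expressed in other cells too. Ephx1, an epoxide hydrolase, had 178 ± 33.5 CPM in AZ82, 141 ± 9.49 in CW069 and 205 ± 32.4 in Control, and Fabp3, a fatty acid carrier, had 142 ± 35.7 CPM in AZ82, 122 ± 8.54 in CW069 and 172 ± 19.8 in Control (SD, n = 3 each). Of the markers on the other side in CW069, named after their values were seen, Klk1b27 had a log2 fold change of 0.89, Cyp2s1 of 0.86, Klk1b21 of 0.72 and Klk1b24 of 0.42, beside 0.07, 0.13, -0.07 and 0.06 in AZ82. The Klk1b genes are near-identical kallikreins, so reads may be split among them.

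Relative to the summed Leydig cell markers in the same library, none of the 10 genes kept all inhibitor libraries below all Control libraries. The log2 ratio of Star to the marker sum was -3.57 ± 0.11 in AZ82, -3.62 ± 0.11 in CW069 and -3.47 ± 0.32 in Control, and that of Cyp11a1 was -2.58 ± 0.19 in AZ82, -2.81 ± 0.19 in CW069 and -2.59 ± 0.10 in Control (SD, n = 3 each). Sult1e1 had the largest difference in this ratio, -0.44 for AZ82 and -0.67 for CW069 relative to Control. Its ratio ran from -6.73 to -6.08 in AZ82 and from -6.69 to -6.51 in CW069, against -6.31 to -5.66 in Control, so the CW069 libraries stayed below Control and those of AZ82 did not. Relative to Insl3 the other 9 genes overlapped between inhibitor and Control libraries. Insl3 is itself 1 of the 10, with log2 fold changes of -0.25 in AZ82 and -0.24 in CW069 and 67 to 118 counts per library. A ratio to it takes out any shift that the 10 genes share, so nothing is concluded from that overlap.

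Other cell types gave these values beside the 10 genes, and their part in the result was not tested. Macrophages, which lie among Leydig cells, had 15 markers, of which 13 had a fold change below 0 in AZ82 and 14 in CW069, and their summed level was 170 to 232 CPM in AZ82, 173 to 227 in CW069 and 218 to 283 in Control. Sertoli cells, which express Nr5a1 as well, had 19 markers with a summed level of 1449 to 1624 CPM in AZ82, 1489 to 1801 in CW069 and 1585 to 1745 in Control. Spermatogonia, the dividing germ cells at the base of the tubules, had 15 markers, of which 14 were tested. The 15 together gave 177 to 197 CPM in AZ82, 184 to 193 in CW069 and 198 to 209 in Control. Every inhibitor library was below every Control library in that sum, but narrowly, with AZ82 3 at 197.4 and Control 3 at 198.1 CPM. Elongating spermatids had 17 markers that summed to 25659 to 29509 CPM in AZ82, 21324 to 24382 in CW069 and 13334 to 27049 in Control, the lowest being Control 3. Without Control 3, 4 of the 10 genes were lower at an unadjusted p under 0.05 in AZ82, where 711 of 15991 tested genes were. Fdxr was no longer among these 4. In CW069 7 of the 10 were, where 766 of 15991 tested genes were. Hsd17b3 was among these 7 and Lhcgr no longer was. Adrenal cortex, which shares Star, Cyp11a1, Fdx1, Fdxr and Nr5a1 with Leydig cells, was near 0 in its corticotropin receptor Mc2r, at 1 to 10 counts per library. All 3 tested adrenal markers had a fold change below 0, with medians of -0.80 in AZ82 and -1.06 in CW069, and edgeR called 0. Their mean log2 level relative to all libraries was -0.46 to 0.25 in AZ82, -0.56 to -0.19 in CW069 and 0.41 to 0.63 in Control. With Mc2r included they summed to 12.7 to 21.9 CPM in AZ82, 14.4 to 17.9 in CW069 and 21.2 to 28.6 in Control. In that sum AZ82 2 lay within the Control range. Mrap had log2 fold changes of -0.31 in AZ82 and -0.05 in CW069. It had 133 to 238 counts per library, and Akr1b7 had 4 to 26. Akr1b7, an aldo-keto reductase, had 0.528 ± 0.148 CPM in AZ82, 0.513 ± 0.240 in CW069 and 1.07 ± 0.522 in Control (SD, n = 3 each). Cyp21a1, the adrenal 21-hydroxylase, was present in all libraries at 5.49 ± 3.27 CPM in AZ82, 2.45 ± 0.605 in CW069 and 9.60 ± 4.61 in Control (SD, n = 3 each).

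**Figure D5:**
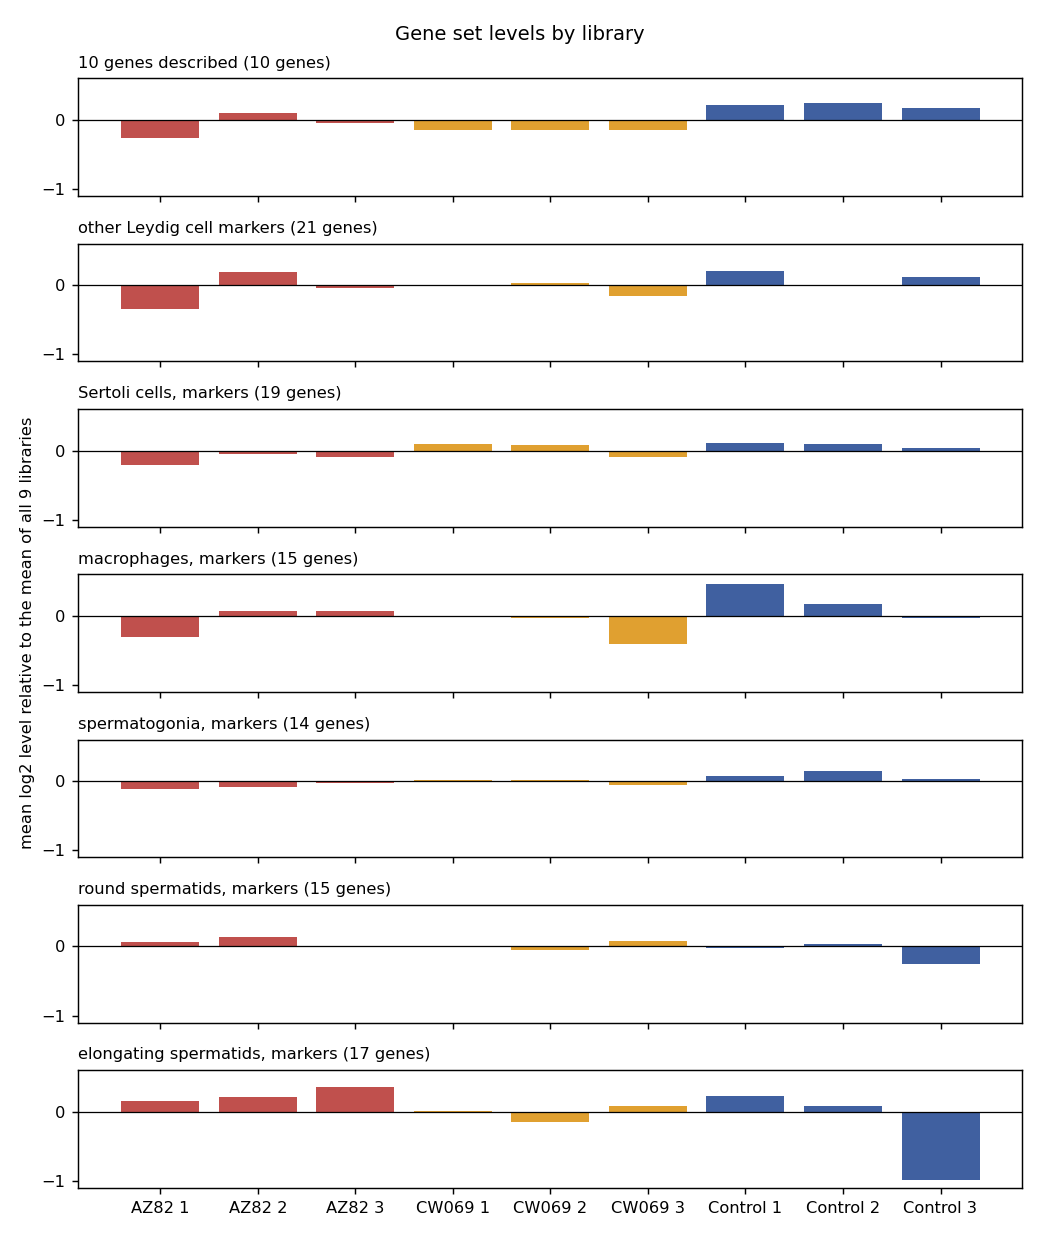
Mean log2 level of the 10 genes and of marker lists of 6 cell types in each library, relative to the mean of all 9 libraries, with AZ82 in red, CW069 in orange and Control in blue. The 10 genes lie at 0.17 to 0.24 in the Control libraries and at -0.26 to 0.11 in the inhibitor libraries, while the elongating spermatid markers set Control 3 apart at -0.99.

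The genes outside the 10 whose profile over the 9 libraries was most like the mean profile of the 10 were Lipg, D5Ertd579e, Pgam5, Rif1 and Ivd, with Pearson r of 0.99, 0.97, 0.96, 0.96 and 0.95 over 9 libraries, chosen from 11810 tested genes that averaged 5 CPM or more. These are the highest of many correlations, and the profiles share the same libraries and scaling. Lipg, a lipase that acts on high-density lipoprotein, had 18.0, 24.9 and 22.4 CPM in AZ82 libraries, 19.7, 20.1 and 20.8 CPM in CW069 libraries, and 26.4, 27.9 and 25.7 CPM in Control libraries. Every inhibitor library was below every Control library in Lipg, with AZ82 2 the highest of AZ82. Lipg was picked as most like the profile of the 10 genes, which has the same order, so this is not a separate result. Among all tested genes, 2.92% lay below Control in every inhibitor library.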

How the data were processed

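Testis mRNA was sequenced in 9 libraries, 3 each of AZ82, CW069 and Control. The deposited values are raw counts of reads per gene, not normalized by the authors; the submitters' processing notes name Trimmomatic, HISAT2, GRCm39 and HTSeq, and the labels a stranded kit, while settings are not given in the sources used here. The single-library files and the joint table hold equal values (9 of 9 libraries). Groups came from the treatment label. The 10 genes, the other lists and the tests were chosen with earlier results of these data known.

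After filterByExpr and TMM scaling, edgeR 4.0.16 (R 4.3.3) was fitted over all 9 libraries with 1 coefficient per group, which leaves 6 residual degrees of freedom, for 4 comparisons. CPM were computed from the counts with TMM factors. The fit was tested on simulated counts. Libraries held 13856070 to 18102593 counts, and the median 95% interval between groups, set by depth and by the spread between libraries, was 0.28 log2 units to either side. Pathway genes were named by the smallest 4 unadjusted p-values of a list over the mean of both inhibitors; some are not reported here. Lengths and overlaps came from GENCODE M21 (GRCm38) and promoters from RefSeq. Alternatives were RLE size factors, library size alone, 2 other filters on low counts, DESeq2 1.42.0, limma-voom (limma 3.58.1), a replicate block, the compared groups alone, and each library left out.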

Additional observations from a re-analysis of the deposited data

How the results depend on the processing

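Over the 8 other settings that kept all libraries, no fold change of the 10 genes changed direction. edgeR called 0 of the 10 in every comparison with any library left out. DESeq2 called 1 of the 10, Cyp11a1, in CW069 against Control and 1 over the mean of both inhibitors, and called 6 genes of the whole table in AZ82 against Control, 28 in CW069 against Control, 13 in CW069 against AZ82 and 15 over the mean of both, where edgeR called 0, 0, 0 and 1. Library size alone called 1 gene in AZ82 and 1 in CW069, limma-voom called 1 in AZ82, and the fit of the compared groups alone called 8 in CW069 against AZ82. Library size alone moved the median fold change of all genes to -0.08 in AZ82 and -0.05 in CW069, where the 10 genes had medians of -0.35 and -0.39. The cause of these differences was not tested.

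Same-numbered libraries did not deviate together: the correlation of their deviations ran from -0.14 to 0.05 over 9 pairs, so the numbers were not taken as pairs. With the replicate block, 0 genes were called over the mean of both inhibitors and 0 of the 10 in any comparison.

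With 1 library left out, genes called ran from 0 to 4 in AZ82 against Control, 0 to 7 in CW069 against Control, 0 to 4 in CW069 against AZ82 and 0 to 6 over the mean of both. Members at an unadjusted p under 0.05 ran from 3 to 6 in AZ82, 5 to 8 in CW069, 5 to 8 over the mean of both and 0 to 2 in CW069 against AZ82. Directions turned in such fits for values near 0. In AZ82 against Control, Cyp17a1 ran from -0.15 to 0.0265, Fdx1 from -0.11 to 0.0290 and Hsd17b3 from -0.34 to 0.0273. Fdx1 ran from -0.19 to 0.12 in CW069 against Control and from -0.11 to 0.0435 over the mean of both. In CW069 against AZ82, Star ran from -0.0164 to 0.14, Fdx1 from -0.15 to 0.16, Fdxr from -0.26 to 0.00194, Nr5a1 from -0.0203 to 0.0451, Insl3 from -0.16 to 0.20 and Sult1e1 from -0.43 to 0.14. With the marker sum in place of Insl3 as the denominator, the ratio difference for CW069 became -0.15 for Star and -0.20 for Hsd17b3. Insl3 had the fewest reads of the 10, at 67 to 118 counts per library.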
